A study of Mus musculus with 7 samples.

Results

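The voltage-gated sodium and calcium channel genes were taken from a table of gene levels in 7 mouse tissues by their symbols: the sodium channel genes Scn with a number followed by a or b, and the calcium channel genes Cacna1, Cacna2d, Cacnb and Cacng with their subunit letter or number. The symbol rule found 40 genes among 50226 names in the table. They were 10 sodium channel alpha, 4 sodium channel beta, 10 calcium channel alpha1, 4 alpha2delta, 4 calcium channel beta and 8 gamma subunit genes. The rule reads symbols and no level.

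The tissues were liver, kidney, visceral adipose tissue (VAT), cerebral cortex, subcutaneous adipose tissue (SCAT), interscapular brown adipose tissue (BAT) and skeletal muscle, from wild-type (wt) mice of 36 weeks on the control diet (NCD). The strain was C57BL/6 in the labels and C57BL/6N in the text of the study. Total RNA was depleted of ribosomal RNA and sequenced, with 1 library for each tissue. Levels were given as FPKM, the fragments of a gene per kilobase of its transcript, scaled to the mapped fragments of the library, so that levels of different genes can be compared. With 1 library per tissue there was no replicate error, so no difference between tissues has a test, an interval or a p-value here, and read depth is unknown from FPKM alone. The number of mice behind each library and their sex were not given in the labels.

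Voltage-gated sodium channels open within a fraction of a millisecond of depolarization and carry the rising phase of the action potential in neurons and muscle. An alpha subunit forms the pore, and small single-pass beta subunits set its gating and surface level. Voltage-gated calcium channels turn the same depolarization into calcium entry or, in skeletal muscle, into a direct mechanical signal to the sarcoplasmic reticulum. Their alpha1 subunit forms the pore, alpha2delta and beta subunits carry it to the membrane, and gamma subunits join the skeletal muscle channel or, as TARPs, escort AMPA-type glutamate receptors at synapses.

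Promoter sequences of 5 genes are shown as examples of 4 tissue patterns: Cacna1s in muscle, Cacna2d1 in muscle and cortex, Cacna1b and Scn2a in cortex, and Scn7a in white adipose tissue. They are the stretches before the RefSeq start (build GRCm38.p6) that lie outside annotated exons, 5′ to 3′ on the gene's own strand. Capitals mark the E-box letters CAGCTG, a sequence of the kind bound by the myogenic and neuronal basic helix-loop-helix factors.
Cacna1s (chr1:136052561-136052749, plus strand): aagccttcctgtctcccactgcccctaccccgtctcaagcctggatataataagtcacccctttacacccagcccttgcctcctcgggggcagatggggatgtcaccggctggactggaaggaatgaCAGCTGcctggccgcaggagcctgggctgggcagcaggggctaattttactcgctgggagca
Cacna2d1 (chr5:15934441-15934690, plus strand): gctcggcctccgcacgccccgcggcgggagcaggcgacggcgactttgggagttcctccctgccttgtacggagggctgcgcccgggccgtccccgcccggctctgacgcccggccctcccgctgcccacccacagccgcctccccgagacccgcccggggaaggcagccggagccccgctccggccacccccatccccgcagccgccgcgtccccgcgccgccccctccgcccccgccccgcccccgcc
Cacna1b (chr2:24763153-24763402, minus strand): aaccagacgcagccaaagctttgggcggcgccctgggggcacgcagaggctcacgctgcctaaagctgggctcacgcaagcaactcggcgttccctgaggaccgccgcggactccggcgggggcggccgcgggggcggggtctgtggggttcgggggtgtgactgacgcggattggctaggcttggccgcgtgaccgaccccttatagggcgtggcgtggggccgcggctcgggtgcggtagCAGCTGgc
Scn2a (chr2:65620519-65620768, plus strand): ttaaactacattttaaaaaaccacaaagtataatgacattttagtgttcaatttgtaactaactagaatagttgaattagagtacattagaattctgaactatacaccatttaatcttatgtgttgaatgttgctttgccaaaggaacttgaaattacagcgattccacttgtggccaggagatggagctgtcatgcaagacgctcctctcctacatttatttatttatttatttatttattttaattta
Scn7a (chr2:66784915-66785160, minus strand): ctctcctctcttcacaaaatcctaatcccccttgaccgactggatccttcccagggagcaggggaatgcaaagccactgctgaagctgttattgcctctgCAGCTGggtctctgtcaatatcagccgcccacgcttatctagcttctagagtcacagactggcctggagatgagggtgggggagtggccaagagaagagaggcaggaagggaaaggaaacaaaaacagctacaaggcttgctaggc
For the whole family, 41 RefSeq promoters of 30 members were searched. Those of Cacna1a, Cacna1g, Cacna1h, Cacna2d4, Cacng1, Cacng4, Scn3a and Scn3b were not analysed here. Windows of 250 bases before the start were searched on both strands. CAGCTG was found in 11 of the 41 windows (26.8%) and in 13.0% of all 32851 promoters. By gene these were 10 of the 30 members. Of 13 members with a promoter that were enriched in cortex, by the measure given further on, 4 had a match. Of 5 enriched in muscle 1 did, Cacna1s. The other members with a match, Cacna1d, Cacnb4, Cacng2, Scn11a and Scn7a, were not enriched in any tissue. TATAAA was found in 2 of the 41 windows, at Cacna1d and the second start of Scn2a, against 12.4% of all promoters, and GGGCGG in 15 of the 41, against 32.7%. TTCAGCACC, part of the site of the neuronal repressor REST, and the MEF2 motif were found in no window of a member, against 0.301% and 0.508% of all promoters. Base composition ranged widely inside each group of genes. Among members enriched in cortex a window held between 0 and 48 CG dinucleotides, with a median of 8, and among those enriched in muscle between 1 and 26, with a median of 7. The median over all promoters was 6.

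Each library held the defining genes of its label. Snap25 measured 215 FPKM in cortex, Ckm 8592 in muscle, Ucp1 6552 in BAT, Umod 929.5 in kidney, Apoa1 2521 in liver, and Adipoq 330.2 in VAT and 109.6 in SCAT. Markers of other cells were also read. BAT held skeletal muscle genes, VAT held epididymal genes such as Crisp1 at 1386 FPKM, and SCAT held lymphocyte and pancreatic acinar genes, with Ms4a1 at 50.6 and Ctrb1 at 35.9 FPKM. In such bulk tissue, fewer cells of a type and less RNA per cell cannot be told apart. Scaling the libraries by the median ratio of protein-coding genes moved log2 levels in muscle by -0.39, in BAT by -0.29, in VAT by 0.42, in SCAT by 0.52 and in cortex by 0.20, so smaller differences between tissues depend on the scaling.

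Of the 40 members, 33 reached 1 FPKM in at least 1 tissue (82.5%), against 69.9% of 21341 protein-coding names. The tissues were far apart. In cortex 29 members reached 1 FPKM (72.5%, against 52.6% of protein-coding names), and in muscle 13 did (32.5%, against 50.9%). BAT held 10 (25.0%, against 50.3%), SCAT 9 (22.5%, against 50.0%), VAT 8 (20.0%, against 52.3%), kidney 8 (20.0%, against 51.8%) and liver 3 (7.50%, against 49.5%). Cacna1d and Cacna2d4 reached 1 FPKM in all 7 tissues and are in each of these counts. Cacna1d was read in a merged locus and Cacna2d4 moved with a neighbouring gene, as given further on. Beside them only Cacnb4, at 1.19 FPKM, reached the minimum in liver. The median member level was 4.76 FPKM in cortex, 0.358 in muscle and between 0.0224 and 0.315 in the other 5 tissues.

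A gene was called enriched in a tissue when it had at least 1 FPKM there and its log2(FPKM + 0.1) lay at least 2 above that in every other tissue, a 4-fold difference on that scale. Of the 33 members, 22 were enriched in some tissue (66.7%), against 21.4% of 14928 protein-coding names with at least 1 FPKM in any tissue. Cortex took 16 of them (48.5%, against 8.21%) and muscle 6 (18.2%, against 3.38%). No member was enriched in liver, kidney, VAT, SCAT or BAT, where the background was 3.39%, 2.49%, 1.21%, 1.93% and 0.757%. The log2 difference to the next tissue ran from 2.34 to 5.93 for the members enriched in cortex (median 3.94, against 3.86 for all protein-coding names enriched there) and from 2.10 to 6.75 for those enriched in muscle (median 5.44, against 3.39). Cacnb1 at 2.10 lay just inside the threshold and Cacnb3 at 1.99 just outside it.

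**Figure D1:**
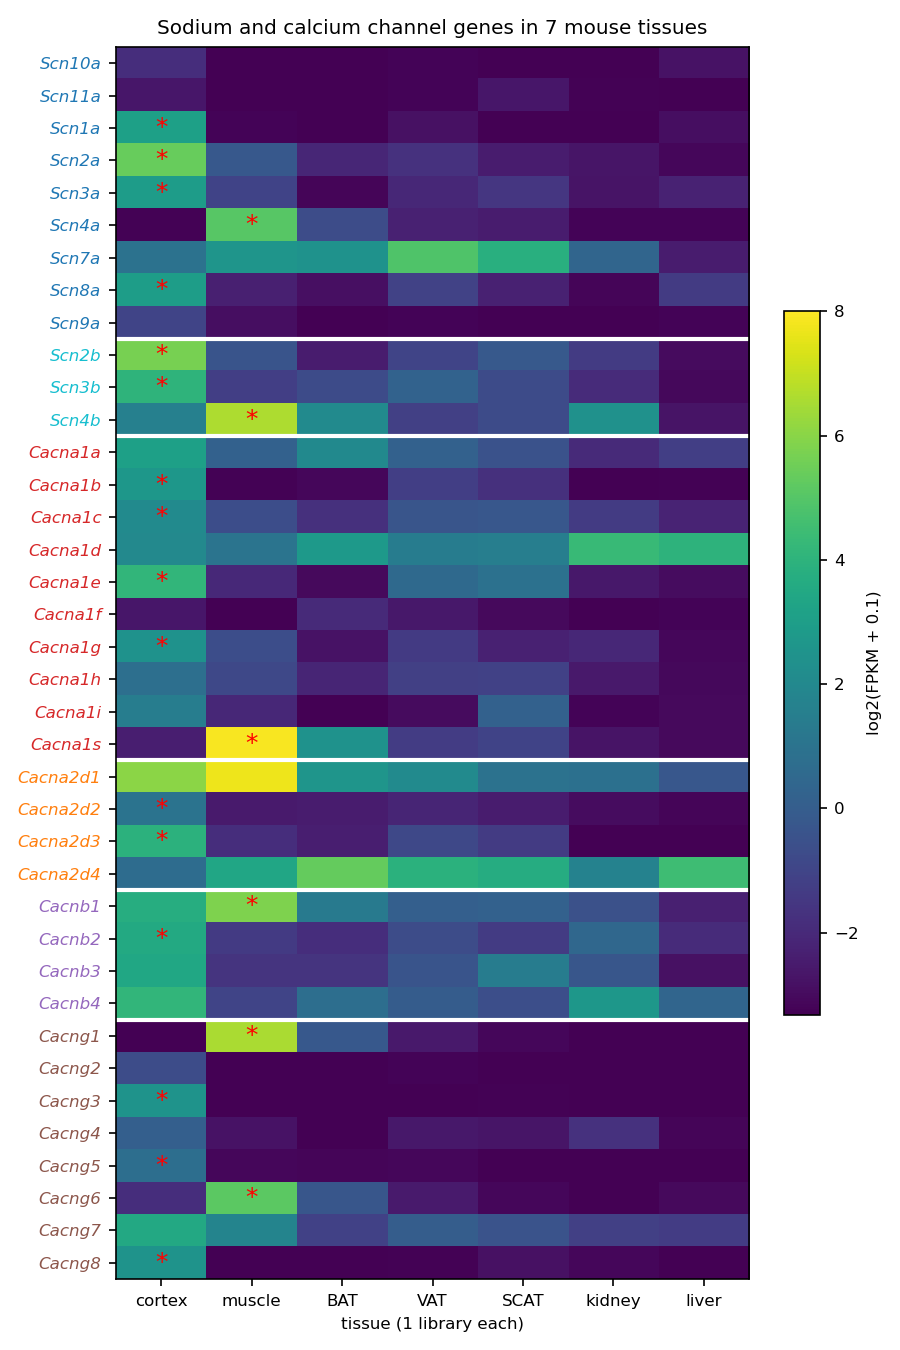
Levels of 38 of the 40 channel genes (rows, grouped by subunit class and coloured by it) in the 7 tissues (columns, 1 library each), as log2(FPKM + 0.1). Red stars mark the 16 genes enriched in cortex and the 6 enriched in muscle. Cortex holds genes at high level in every class, whereas muscle holds few genes of each class at high level. Cortex also has gaps, such as Scn4a at 0.00435 FPKM and Cacng1, listed at 0, and 4 of the 8 gamma genes reached 1 FPKM there.

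The neuronal sodium channel alpha genes were read almost wholly in cortex. Scn2a, the main alpha subunit of excitatory neurons, led the class there (GRCm38 chr2:65620771-65767447, plus strand). Scn2a measured 40.8 FPKM in cortex, 0.775 in muscle, 0.204 in VAT, 0.133 in BAT, 0.0844 in SCAT, 0.0572 in kidney and 0.0145 in liver. Its cortical level lay 5.55 log2 units above muscle, the next tissue. Scn1a, the channel of fast-spiking inhibitory interneurons, measured 8.66 FPKM in cortex, 0.0437 in VAT, 0.0346 in liver, 0.00849 in muscle, and was listed at 0 in kidney, SCAT and BAT. Scn8a, the channel of mature axon initial segments and nodes of Ranvier, measured 7.72 FPKM in cortex, 0.366 in VAT, 0.288 in liver, 0.107 in SCAT, 0.0983 in muscle, 0.0370 in BAT and 0.0129 in kidney. Both had one cortical value and 6 values below 0.4 FPKM.

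Scn3a, the alpha subunit of the embryonic brain, measured 7.59 FPKM in cortex, 0.384 in muscle, 0.249 in SCAT, 0.137 in VAT, 0.115 in liver, 0.0498 in kidney and 0.0110 in BAT. This value came from a locus that, by the order of locus numbers in the table, lay on the strand opposite to the gene. The libraries were directional, but whether the authors' quantification used strand is not given in the sources used here, and if it did not, reads of the gene and of the opposite strand cannot be told apart in this and every other opposite-strand value. On the annotated strand Scn3a measured 2.00 FPKM in cortex, further below Scn1a and Scn8a. Together the 10 alpha genes summed to 67.7 FPKM in cortex, of which Scn2a made 60.2%.

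In muscle the class was held by Scn4a, the sodium channel of the skeletal muscle action potential (chr11:106318592-106353288, minus strand). Scn4a measured 33.0 FPKM in muscle, 0.512 in BAT, 0.103 in VAT, 0.0791 in SCAT, 0.00742 in liver, 0.00688 in kidney and 0.00435 in cortex. It made 81.7% of the summed alpha level of 40.3 FPKM in muscle, and it was lowest of all tissues in cortex. Scn7a, an atypical member that responds to extracellular sodium rather than to voltage, stood next to it in muscle.

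Scn7a had an unlike pattern (chr2:66673425-66784914, minus strand). Scn7a measured 29.1 FPKM in VAT, 14.1 in SCAT, 5.98 in muscle, 5.34 in BAT, 1.85 in cortex, 1.20 in kidney and 0.0808 in liver. The 2 white depots were the highest, BAT and muscle lay close to each other, and cortex and kidney were near 1 to 2 FPKM. It made 96.9% of the alpha level in VAT, 95.2% in SCAT and 87.5% in BAT. Of 5 smooth muscle markers, Myh11, Acta2, Tagln and Cnn1 were also highest in VAT and Des was highest in muscle, but SCAT was second for Acta2 alone. The part of smooth muscle in the Scn7a level was not tested.

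Alpha genes of sensory neurons were low throughout. Scn9a, a channel of pain-sensing neurons, was highest in cortex at 0.401 FPKM. Scn10a and Scn11a, both known from nociceptors of the dorsal root ganglion, reached 0.183 and 0.0599 FPKM at most. The Scn10a value came from the opposite strand, and the annotated strand gave 0.0133 FPKM in cortex. Sensory ganglia, the usual site of these channels, were not analysed here.

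Among the beta genes, cortex and muscle each had genes of their own. Scn4b, the subunit linked to resurgent sodium current, measured 98.2 FPKM in muscle, 5.19 in kidney, 4.19 in BAT, 2.92 in cortex, 0.497 in SCAT, 0.348 in VAT and 0.0511 in liver. Its locus lay on the opposite strand, and on the annotated strand Scn4b measured 20.0 FPKM in muscle and 0.519 in cortex.

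Scn2b, which binds alpha subunits through a disulfide bond, measured 50.6 FPKM in cortex, 0.798 in SCAT, 0.678 in muscle, 0.401 in VAT, 0.295 in kidney, 0.0836 in BAT and 0.0240 in liver. Scn3b, which binds alpha subunits without a covalent bond, measured 16.6 FPKM in cortex, 1.06 in VAT, 0.504 in SCAT, 0.501 in BAT, 0.332 in muscle, 0.165 in kidney and 0.0188 in liver. Both were enriched in cortex, by 5.82 and 3.85 log2 units. The Scn2b value also came from the opposite strand, where the lincRNA gene Gm10684 spans the whole of Scn2b. The annotated strand gave 4.82 FPKM, so the place of Scn2b among the cortical beta genes depends on the strand counted, whereas its enrichment in cortex does not.

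**Figure D2:**
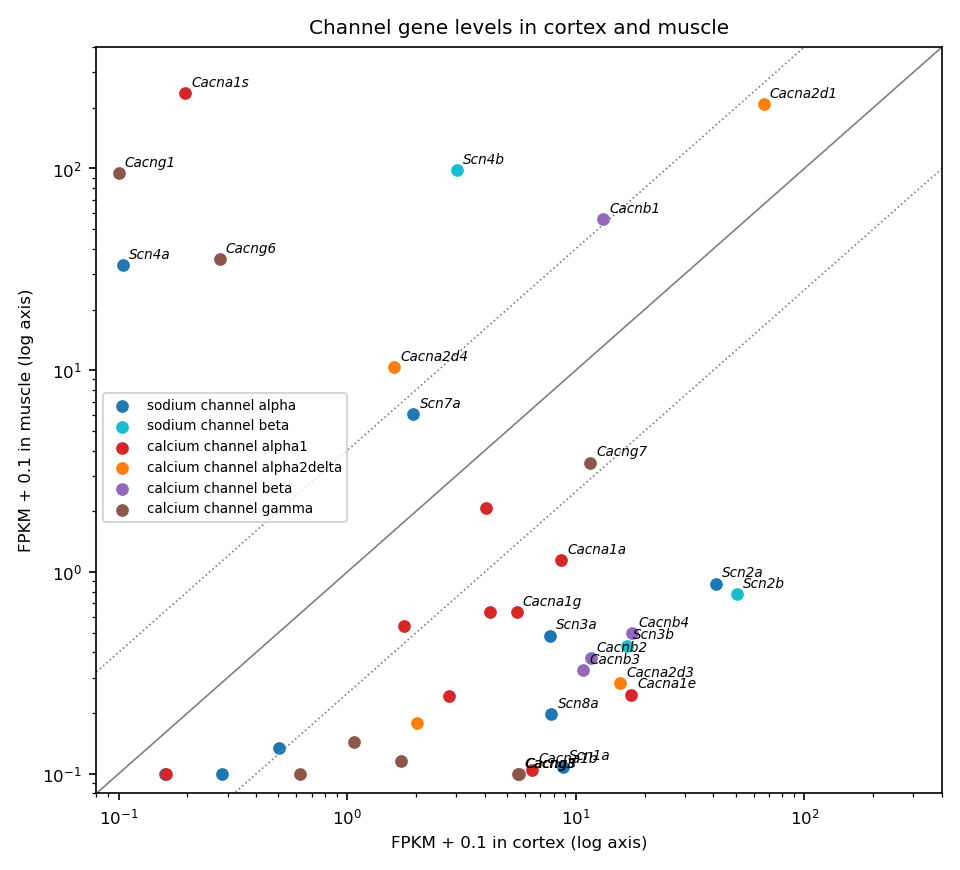
FPKM + 0.1 in cortex (horizontal, log axis) and in muscle (vertical, log axis) for 38 of the 40 genes, 1 point each, coloured by subunit class. The solid line marks equal levels and the dotted lines a 4-fold difference. Cacna1s, Cacng1, Scn4a, Cacng6 and Scn4b stand at the upper left, Cacna2d1 and Cacnb1 are high in both tissues, and most other genes lie at the lower right.

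The calcium channel of skeletal muscle appeared as a complete set. With 1 locus taken per name, Cacna1s, the voltage sensor of the transverse tubule, was the highest member in any tissue (chr1:136052750-136119822, plus strand). The rank depends on that choice, since Cacna2d1 had 2 loci in muscle, at 209 and 98.0 FPKM, which were not summed here. Cacna1s measured 237 FPKM in muscle, 5.35 in BAT, 0.384 in SCAT, 0.299 in VAT, 0.0954 in cortex, 0.0516 in kidney and 0.0217 in liver. It made 98.0% of the alpha1 level in muscle, and BAT was the only other tissue above 0.4 FPKM. A transcript model on the opposite strand at its 3′ end, Gm37759, measured 85.1 FPKM in muscle and 1.57 in BAT.

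Its accessory subunits were read beside it. Cacnb1, the beta subunit required for the muscle channel, measured 56.2 FPKM in muscle, 13.1 in cortex, 2.41 in BAT, 1.03 in SCAT, 0.984 in VAT, 0.596 in kidney and 0.101 in liver. Cacng1, the muscle gamma subunit, measured 94.4 FPKM in muscle, 0.775 in BAT, 0.0732 in VAT, 0.0157 in SCAT, and was listed at 0 in liver, kidney and cortex. On the log2(FPKM + 0.1) scale Cacng1 had the largest difference of all members, 6.75 over BAT. That scale understates differences of low genes, so the rank depends on the pseudocount. Cacng6, its nearest relative, measured 35.3 FPKM in muscle, 0.717 in BAT, 0.177 in cortex, 0.0780 in VAT, 0.0204 in liver, 0.0165 in SCAT, and was listed at 0 in kidney. That locus lay on the opposite strand, and the annotated strand gave 18.3 FPKM in muscle.

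Cacna2d1, the alpha2delta subunit bound by gabapentin, was high in both tissues. Cacna2d1 measured 209 FPKM in muscle, 66.2 in cortex, 5.82 in BAT, 4.18 in VAT, 1.81 in SCAT, 1.70 in kidney and 0.741 in liver. Muscle exceeded cortex by 1.66 log2 units, below the threshold. On the annotated strand muscle read 98.0 and cortex 40.0 FPKM. Cacnb1 was likewise present in cortex, and its muscle enrichment fell below 4-fold when all loci of a name were summed (1.95) or libraries were scaled by the median ratio (1.51). In cortex, by comparison, Cacna1s read 0.0954 and Cacng6 0.177 FPKM, and Cacng1 was listed at 0.

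All 10 triad genes listed with the channel were also enriched in muscle. These genes couple the transverse tubule to the calcium store. Atp2a1, the calcium pump of the reticulum, measured 3995 FPKM there, Trdn, which anchors the release complex, 817, Srl, a calcium-binding glycoprotein of the reticulum, 490.0 and Casq1, the calcium buffer of its lumen, 419. No other tissue exceeded 67.2 FPKM for any of the 10, a value that Atp2a1 had in BAT.

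BAT held the muscle channel genes at a few percent of their muscle level. Cacng1 in BAT was 0.821% of muscle, Scn4a 1.55%, Cacng6 2.03%, Cacna1s 2.26%, Scn4b 4.26% and Cacnb1 4.28%. The 10 triad genes spanned 1.43% to 4.72%, with a median of 2.46%. The skeletal muscle markers with a value in muscle were Mylpf at 1.46%, Tnnc2 at 1.67%, Ckm at 1.93% and Tnnt3, whose locus was merged with Lsp1, at 3.13%. Acta1 was not analysed here, Myh4 had no usable value in muscle, and Myh4 measured 87.5 FPKM in BAT. Cacng1 was below all of these triad genes and markers, and the other 5 channel genes lay within their span. The part of muscle tissue in the BAT library was not tested. In VAT the same 6 genes were between 0.0775% and 1.75% of muscle, and Ckm 0.115%.

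Cacna1a, the pore of P/Q-type channels at synapses, did not follow them (chr8:84388440-84640246, plus strand). Cacna1a measured 8.52 FPKM in cortex, 4.09 in BAT, 1.05 in muscle, 1.04 in VAT, 0.614 in SCAT, 0.323 in liver and 0.153 in kidney. BAT was second only to cortex and stood at 391% of muscle. The neuron markers Rbfox3, Snap25 and Syt1 were listed at 0 in BAT, Nefl measured 0.114 and Stmn2 1.45 FPKM. With BAT left out, Cacna1a was enriched in cortex, a choice made after its values were seen.

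**Figure D3:**
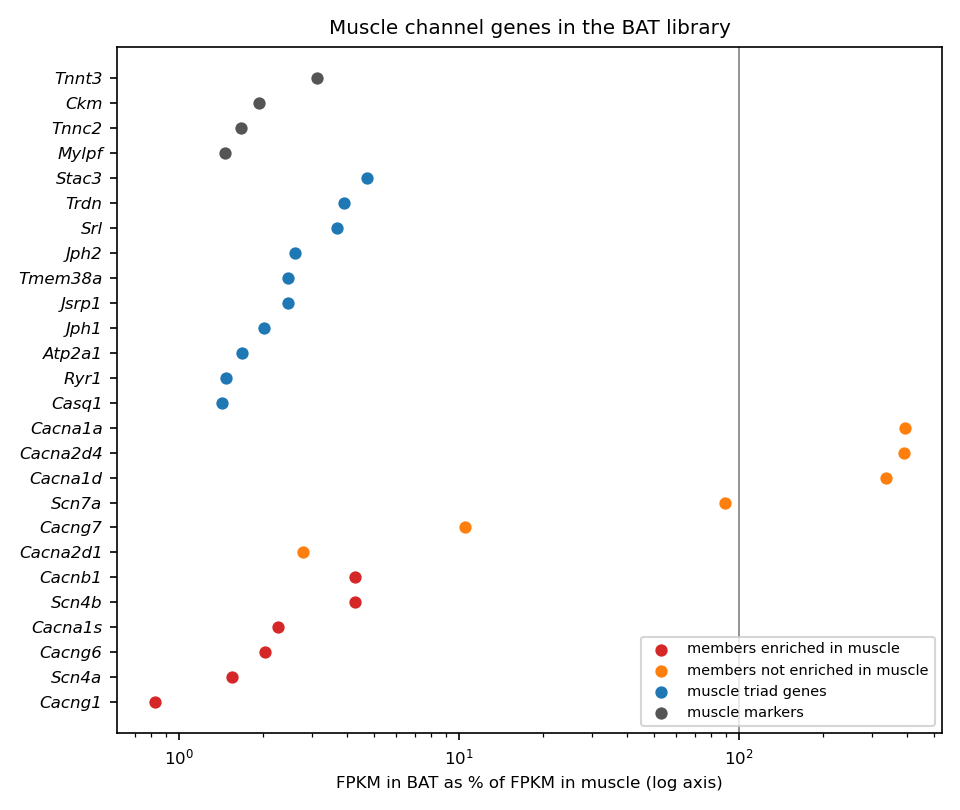
Level in BAT as a percentage of the level in muscle (horizontal, log axis) for members enriched in muscle, 6 other members with at least 1 FPKM in muscle, the 10 triad genes and 4 muscle markers, 1 library per tissue. The vertical line marks equal levels. Of the enriched members Cacng1, at 0.821%, lies below all triad genes and markers and the others lie within their span, whereas Cacna1a, Cacna1d and Cacna2d4 lie to the right of that line.

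In cortex the alpha1 class was shared among many genes. Cacna1e, the pore of R-type channels, led with 34.5% of a summed level of 50.1 FPKM. Cacna1e measured 17.3 FPKM in cortex, 1.78 in SCAT, 1.36 in VAT, 0.147 in muscle, 0.0673 in kidney, 0.0312 in liver and 0.0207 in BAT. Cacna1b, the pore of N-type channels of nerve endings, measured 6.33 FPKM in cortex, 0.332 in VAT, 0.2 in SCAT, 0.0153 in BAT, 0.00489 in muscle, 0.00391 in liver, and was listed at 0 in kidney. Both were enriched in cortex, and for Cacna1e the white depots were the only other tissues above 1 FPKM. The sum of 5 neuron markers was 1.98 FPKM in VAT and 2.64 in SCAT, against 570.5 in cortex, and in SCAT most of it was Stmn2 at 2.35 FPKM.

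Cacna1c, the L-type channel of heart, smooth muscle and neurons, measured 4.12 FPKM in cortex, 0.736 in SCAT, 0.696 in VAT, 0.537 in muscle, 0.288 in kidney, 0.198 in BAT and 0.115 in liver. It was the member with the smallest difference to pass in cortex, 2.34, and it was below 0.8 FPKM in the tissues rich in smooth muscle genes. It was no longer enriched with a pseudocount of 1, a minimum of 5 FPKM, upper quartile scaling or an 8-fold threshold. The T-type genes, whose channels open near the resting potential, spanned 1.68 to 5.41 FPKM in cortex. Cacna1g measured 5.41 FPKM in cortex, 0.532 in muscle, 0.274 in VAT, 0.137 in kidney, 0.107 in SCAT, 0.0469 in BAT and 0.0142 in liver. This too came from the opposite strand, and the annotated strand gave 3.96 FPKM in cortex. Cacna1h and Cacna1i were highest in cortex too, at 1.68 and 2.69 FPKM, and were not enriched, since muscle held Cacna1h at 0.441 and SCAT held Cacna1i at 1.03. Cacna1f, the L-type channel of the retina, reached 0.159 FPKM at most, in BAT.

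Of the remaining alpha2delta genes, Cacna2d3 measured 15.5 FPKM in cortex, 0.449 in VAT, 0.295 in SCAT, 0.182 in muscle, 0.0912 in BAT, and was listed at 0 in liver and kidney. Cacna2d2 measured 1.91 FPKM in cortex, 0.127 in VAT, 0.0827 in BAT, 0.0808 in SCAT, 0.0780 in muscle, 0.0304 in kidney and 0.0108 in liver, from the opposite strand, against 1.67 FPKM in cortex on the annotated one. Cortex alone passed 1 FPKM for both. The alpha2delta sum was 219.1 FPKM in muscle and 85.1 in cortex, and Cacna2d1 made 95.2% and 77.8% of it.

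The 4 calcium channel beta genes had similar levels in cortex. Cacnb4, a beta subunit of cerebellar and forebrain neurons, measured 17.6 FPKM in cortex, 6.25 in kidney, 1.63 in BAT, 1.19 in liver, 0.876 in VAT, 0.564 in SCAT and 0.396 in muscle. Kidney was its second tissue. Cacnb2, the cardiac beta subunit, measured 11.5 FPKM in cortex, 1.25 in kidney, 0.524 in VAT, 0.288 in SCAT, 0.276 in muscle, 0.176 in BAT and 0.162 in liver. Cacnb3, found in neurons and lymphocytes, measured 10.7 FPKM in cortex, 2.61 in SCAT, 0.726 in kidney, 0.667 in VAT, 0.230 in BAT, 0.227 in muscle and 0.0419 in liver. The 4 genes lay between 10.7 and 17.6 FPKM in cortex, in the order Cacnb4, Cacnb1, Cacnb2 and Cacnb3. With no replicates the order of such near neighbours has no error behind it. Cacnb3 was highest outside cortex in SCAT, the library in which 4 lymphocyte genes summed to 107 FPKM against at most 3.25 in any other tissue, and their part in it was not tested. In muscle Cacnb1 made 98.4% of the class.

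**Figure D4:**
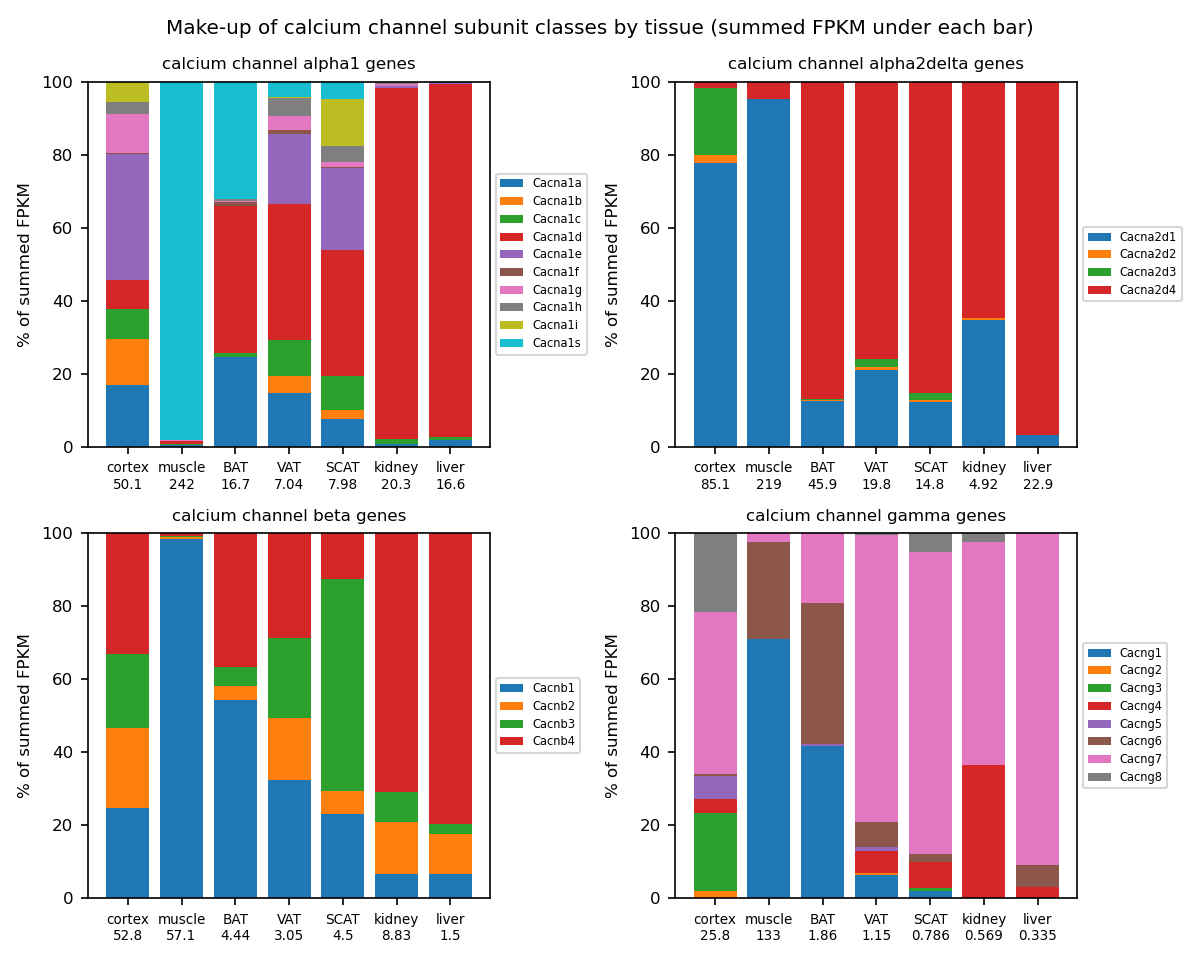
Share of each gene in the summed FPKM of its subunit class (stacked bars, percent), for the 4 classes of calcium channel subunits, by tissue, with the summed FPKM under each bar and 1 library per tissue. Muscle is dominated by 1 gene in the calcium channel alpha1, alpha2delta and beta classes, whereas in cortex the alpha1, beta and gamma classes are divided among several genes and Cacna2d1 makes 77.8% of the alpha2delta class. Bars over small sums, such as the gamma genes outside cortex and muscle, rest on low values. The Cacna1d share (96.7% of alpha1 in liver, 96.2% in kidney) is that of a locus merged with Il17rb. The Cacna2d4 share (96.7% of alpha2delta in liver, 86.9% in BAT) is of readings that moved with Adipor2. The source of those reads was not tested.

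The gamma genes of the TARP type followed cortex. Cacng8, a TARP of forebrain AMPA receptors, measured 5.57 FPKM in cortex, 0.0406 in SCAT, 0.0143 in kidney, 0.00534 in VAT, and was listed at 0 in liver, BAT and muscle. Cacng3 measured 5.5 FPKM in cortex, 0.00571 in SCAT, and was listed at 0 in liver, kidney, VAT, BAT and muscle. Both were at or below 0.05 FPKM in the 6 other tissues, and Cacng3 measured 2.91 FPKM in cortex on the annotated strand. Cacng7, a TARP of another type, measured 11.4 FPKM in cortex, 3.39 in muscle, 0.902 in VAT, 0.651 in SCAT, 0.358 in BAT, 0.346 in kidney and 0.304 in liver. It came from the opposite strand, with 6.22 FPKM in cortex and 2.53 in muscle on its own, and it was not enriched, with muscle as the next tissue. Under median-ratio and upper quartile scaling it was enriched in cortex.

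Cacng5, a relative of Cacng7, measured 1.62 FPKM in cortex, 0.0155 in muscle, 0.0137 in VAT, 0.0108 in BAT, and was listed at 0 in liver, kidney and SCAT. On its annotated strand it read only 0.185 FPKM in cortex and did not reach 1 FPKM. Cacng4 and Cacng2 stayed under 1 FPKM, with 0.973 and 0.522 in cortex, but under median-ratio scaling Cacng4 passed 1 FPKM and was enriched in cortex. Cacng2, known as stargazin, is used most in the cerebellum, which was not analysed here. The 4 AMPA receptor genes that these subunits accompany were all enriched in cortex, with Gria2 at 124 FPKM, Gria3 at 33.1, Gria1 at 31.9 and Gria4 at 20.9.

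Partner genes of the neuronal channels were more mixed. Of 10 partners of sodium channels at the axon initial segment and node, 5 were enriched in cortex. Sptbn4, not among these 5, was read through a locus merged with Gm20479 and Shkbp1. Cntn1 and Nrcam, both adhesion molecules, measured 136 and 135 FPKM there, and Fgf12, an intracellular modulator of the channels, 31.4. Ank3, the ankyrin that gathers sodium channels at the initial segment, measured 30.9 FPKM in kidney, 29.6 in muscle and 21.8 in cortex, so it was not a cortical gene in these libraries. Of 8 active zone partners of N- and P/Q-type channels, 6 were enriched in cortex. Erc2 and Rims1, scaffolds of the release site, measured 28.7 and 23.6 FPKM there. Cask, a membrane scaffold, measured 28.7 in cortex and between 10.9 and 18.7 in the other tissues, and Unc13a, a priming factor, 20.6 in cortex and between 2.95 and 7.44 elsewhere.

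Other voltage-gated relatives and inhibitors were mixed. All 4 measured genes of the sodium leak channel complex were enriched in cortex, with Unc80 at 16.5, Nalcn, its pore, at 12.6, Unc79 at 9.77 and Fam155a at 7.26 FPKM. Of the 4 RGK proteins, small GTPases that inhibit calcium channels, Rem2 alone was enriched, in cortex at 1.5 FPKM, and Rrad was highest in muscle at 5.02 against 1.87 in kidney. Of 6 genes of the sperm channel CatSper, 5 stayed under 1 FPKM in every tissue. Catsper2 was read in all tissues through a locus merged with Ell3 and Serinc4. Tpcn1, an endolysosomal two-pore channel, was broad, from 1.39 FPKM in cortex to 13.2 in muscle, and Hvcn1, the proton channel of leukocytes, was highest in SCAT at 9.62.

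The readings of Cacna2d4 in all 7 tissues, and of Cacna1d outside cortex and muscle, moved with those of neighbouring genes. Cacna2d4, the alpha2delta subunit of the retina, was the only member highest in BAT at 1 FPKM or more. Cacna2d4 measured 39.9 FPKM in BAT, 22.2 in liver, 15.0 in VAT, 12.6 in SCAT, 10.2 in muscle, 3.19 in kidney and 1.5 in cortex. Adipor2, an adiponectin receptor gene, ends less than 1 kb away on the other strand (chr6:119353150-119417704). Adipor2 measured 189.9 FPKM in BAT, 87.3 in liver, 66.2 in VAT, 48.5 in SCAT, 43.6 in muscle, 11.8 in kidney and 5.12 in cortex. Both genes had the tissues in one order, and Cacna2d4 was between 21% and 29.3% of Adipor2 in all 7. Which of the genes the Cacna2d4 reads came from was not tested.

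Cacna1d, an L-type channel of pacemaker and endocrine cells, was read in a locus that also carried the name Il17rb, a neighbouring cytokine receptor gene. That locus measured 19.5 FPKM in kidney, 16.1 in liver, 6.68 in BAT, 3.93 in cortex, 2.75 in SCAT, 2.61 in VAT and 1.98 in muscle. Kidney and liver were high and muscle lowest. Chdh, a choline dehydrogenase gene that lies next to Il17rb, overlaps one end of Cacna1d and runs the other way, measured 15.9 FPKM in kidney, 12.1 in liver and 5.27 in BAT, against 1.11 to 1.29 in cortex, SCAT and VAT and 0.0305 in muscle. The shares of Cacna1d and Il17rb in the value of the merged locus cannot be told apart. Adipor2, Chdh, Gm37759 and Gm10684 were named after their values were seen.

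**Figure D5:**
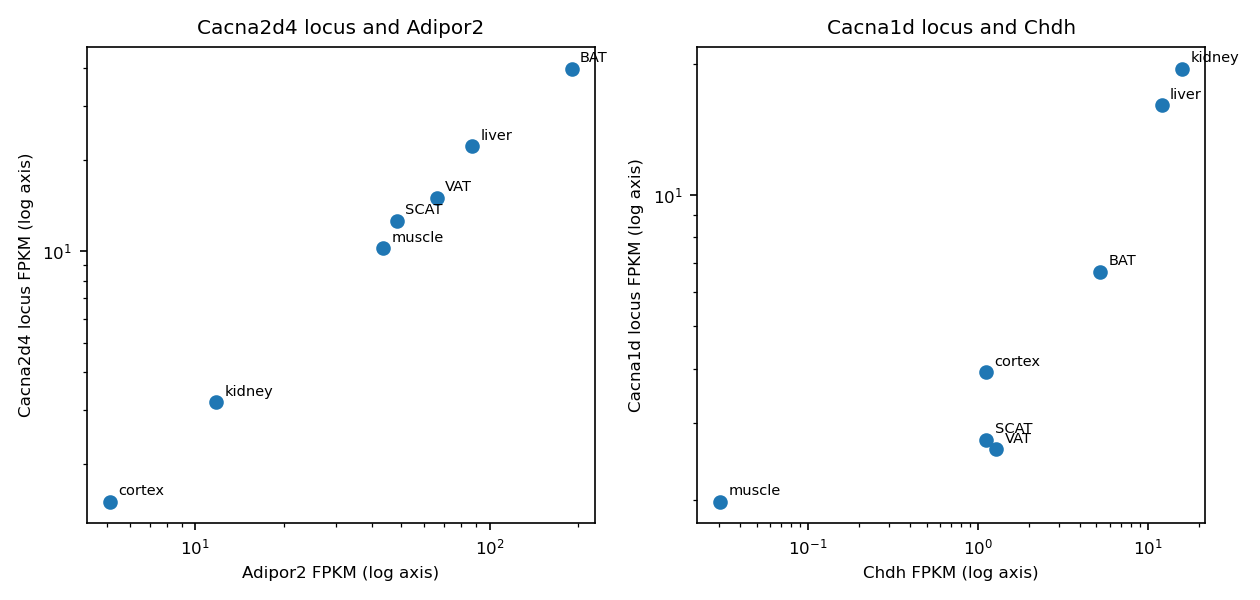
FPKM of the Cacna2d4 locus against Adipor2 (left) and of the Cacna1d locus, which also carries the name Il17rb, against Chdh (right), 1 point per tissue, all axes logarithmic. The Cacna2d4 points run parallel to those of Adipor2 at 21% to 29.3% of its level.

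The strand of a reading mattered for several other members. The 40 members had 79 loci in the table, and 22 of them had loci on both strands, with the same highest tissue on both in all 22. For 12 members the higher locus lay on the strand opposite to the gene, by 1.14 to 13.7 times. The 18 members with loci on 1 strand had them on the annotated strand in every case. With loci of the annotated strand only, an alternative added after seeing the data, 15 members were enriched in cortex, 6 in muscle and 21 in all, and Cacng5 was the member lost. Scn2a then made 66.1% of the sodium channel alpha level in cortex.

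Some members that lie side by side in the genome were read in different tissues. There were 13 pairs of neighbouring members less than 1000 kb apart. In 4 pairs both genes were enriched, 2 pairs in the same tissue and 2 in different ones. Neighbouring pairs among all genes were not counted, so these few pairs have no background share beside them. Scn2b, enriched in cortex, lies 8.33 kb before Scn4b, enriched in muscle, on chromosome 9. Cacng8, enriched in cortex, lies 8.55 kb before Cacng6, enriched in muscle, on chromosome 7. In both of these pairs 1 or both values came from the opposite strand, and the contrast held on the annotated strand, where Scn2b had 4.82 FPKM in cortex and 0.137 in muscle. On chromosome 11 Cacng1 lies 15.8 kb from Cacng4, with 94.4 FPKM in muscle for the former and 0.973 in cortex for the latter. The sodium channel cluster of chromosome 2 held Scn3a, Scn2a and Scn1a, all enriched in cortex, then Scn9a under 1 FPKM, and at its end Scn7a, which was highest in VAT and lies 38.5 kb from Scn9a.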

How the data were processed

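Total RNA depleted of ribosomal RNA from 7 mouse tissues, 1 library each, was sequenced by the authors. They removed adapters, filtered ribosomal reads with Bowtie2 2.2.9, aligned reads to GRCm38 (mm10) with STAR 2.6.0c, and assembled and compared transcripts with Cufflinks and Cuffdiff (suite version 2.2.1 per the submitters' processing notes). The library type and scaling settings of Cuffdiff are not given in the sources used here. The authors deposited the FPKM of each locus in each tissue, in a table of all 21 pairs of tissues with 94339 loci. The table also holds the authors' fold changes, test statistics and p-values for single libraries, which were not used.

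The 151 loci with status FAIL were left out and zeros with status LOWDATA were treated as missing. No locus of a member had either. For a name with several loci, the locus with the highest maximum FPKM was taken. Loci of overlapping genes share their bounds in the table, so gene positions, strands and biotypes were taken from GENCODE vM21, which uses the same build, and the strand of a locus was read from the order of locus numbers along each chromosome. A zero in the table may be a failed estimate, so genes are described as listed at 0. The pseudocount was 0.1, the detection minimum 1 FPKM and the enrichment threshold 2 on the log2(FPKM + 0.1) scale, which understates differences of low genes. The enrichment rule was checked on simulated data. FPKM carries no depth, and without replicates there is no error to set beside a value. Tables were made with Python 3.11.15 and pandas 2.3.3.

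Members, partner lists, cell type markers and motifs were chosen with earlier results of these data known. Every member may be named. Those with at least 1 FPKM that lead their subunit class or are enriched are given in all 7 tissues, as are up to 4 genes of each partner list with the highest maximum in their leading tissue, and markers beside the members they touch. Fam155b and Acta1 were not analysed here. The values of 2 members and 1 marker are not reported here, although these members stay in the counts and sums. Alternatives were another pseudocount, minimum, fold, scaling, treatment of loci and zeros, and left-out libraries.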

Additional observations from a re-analysis of the deposited data

How the results depend on the processing

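The counts of members enriched in cortex (16), in muscle (6) and in any tissue (22) stayed within 1.5 times under another pseudocount, minimum, fold or scaling, summed loci, loci of the annotated strand, and without the VAT and SCAT libraries or BAT. The count of members detected (33) was recomputed for another minimum or scaling, summed loci and the annotated strand, and ranged from 28 (5 FPKM) to 35 (0.5 FPKM). No locus of a member had the status FAIL or a LOWDATA zero, so keeping those could not move a count of members. Leaving out Cacna1d and Cacna2d4, which were not enriched, could not move the 22. Cortex ranged from 13 (pseudocount 1 or a minimum of 5 FPKM) to 22 (2-fold), muscle from 5 to 8, and all tissues from 19 to 31. With the loci of each name summed, Scn2a made 68.9% of the sodium channel alpha level in cortex (60.2% as reported), Scn4a 71.5% in muscle (81.7%), Cacna1e 35.6% of the alpha1 level in cortex (34.5%) and Cacna1s 97.6% in muscle (98.0%). With the annotated strand only, added after seeing the data, they made 66.1%, 82.2%, 35.6% and 98.1%. Of the 22 log2 differences, 3 fell below 2 with a pseudocount of 1 (Cacna1c, Cacna2d2 and Cacng5) and 1 under each of median-ratio scaling and summed loci (Cacnb1) and the annotated strand (Cacng5) and none changed direction. Upper quartile scaling and an 8-fold threshold each lost Cacna1c and Cacnb1, and a minimum of 5 FPKM lost Cacna1c, Cacna2d2 and Cacng5. Members gained in cortex were Cacng7 under median-ratio and upper quartile scaling, Cacng4 under median-ratio scaling, Cacnb3 with a pseudocount of 0.01, Cacng2 with a minimum of 0.5 FPKM or none, Cacna1i and Cacnb3 without VAT and SCAT, and Cacna1a without BAT (also added after seeing the data), and a 2-fold threshold gained 9 members. The alternative that takes the locus with the largest overlap with the gene was not run, because loci of one bundle share their bounds. No paired analysis was possible because each tissue has 1 library. Depth is unknown, so values well under 1 FPKM, and orders among genes of near level, have no stated precision.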
